A study of Homo sapiens with 2 samples.

Results

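MHC class I molecules and the machinery that loads them with peptide were followed as 9 genes, which are the heavy chain genes HLA-B, HLA-C, HLA-E, HLA-F and HLA-G, the light chain B2M, the peptide transporter subunits TAP1 and TAP2, and TAPBP (tapasin). Every probe set that the platform annotation assigns to one of them was taken, which gave 28 of the 54675 probe sets on the array, and none of the 28 was shared with another gene. The genes were listed by name, but with earlier results of these data known. The study compared Calu-3, a human lung adenocarcinoma line used as a model of airway epithelium, in 2 conditions, each measured on 1 array. Stretched cells, on collagen type I plates with a flexible base, at about 80% confluence, underwent 18 h of cyclic strain from 0.7% to 20%, 2 s on and 2 s off. The control was the same line labelled with the same 18 h and no stretch, and the medium was MEM with 10% serum. The labels name neither the number of cultures behind an array nor any separate cultures, so each value below is that of a single array, and no test between the conditions, SD or p-value could be had.

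MHC class I displays peptides from inside the cell to CD8 T cells and to receptors of natural killer cells on nearly every nucleated cell. The proteasome cuts proteins into peptides, TAP1 and TAP2 pump them into the endoplasmic reticulum, and tapasin with calreticulin and the disulphide isomerase ERp57 holds the heavy chain and beta-2-microglobulin ready until a fitting peptide binds. HLA-B and HLA-C are classical, highly polymorphic heavy chains, whereas HLA-E, HLA-F and HLA-G are non-classical ones with few alleles. Interferons raise the transcription of most of these genes in airway epithelium.

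All 9 genes had a lower signal in the stretched array in their brightest probe set, by small amounts. The log2 difference, stretched minus non-stretched, ran from -0.65 in TAP1 to -0.15 in TAP2 with a median of -0.41, against a median of 0.005 over the 13453 measured genes. A gene was called measured if its brightest probe set exceeded the floor, the 50th percentile of the array (28.7 and 28.4), in at least 1 array. None of the 9 was at least 2-fold lower, which 7.49% of measured genes were, and none was at least 2-fold higher, which 7.78% were. TAP1 and TAPBP were at least 1.5-fold lower (2 of 9, against 16.7% of measured genes), and none of the 9 was at least 1.5-fold higher (17.9%). Below 0 lay 9 of 9 genes against 49.5% of measured genes, and 9 of 9 after centring each array on its 75th percentile (57.2% of measured genes) or on the hybridisation spike-ins (40.8%). TAP2 lay above 0 instead when its probe sets were averaged (0.38) or when probe sets ending in _x_at and _s_at were left out (0.64), so these 9 of 9 hold for brightest probe sets. Each heavy chain gene is given there by a probe set that can bind transcripts of related genes. The 9 are therefore not 9 separate readings.

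Of the 28 probe sets, 26 were above the floor in at least 1 array and 23 of these lay below 0, against 46.5% of the 29259 measured probe sets. Among the 26 were 15 class I probe sets ending in _x_at, whose probes can bind transcripts of related genes. The counts of probe sets here are therefore not counts of separate readings. None of the 26 was at least 2-fold lower (6.25% of all) or at least 2-fold higher (8.43%). At least 1.5-fold lower were 4 of 26 (14.9% of all) and at least 1.5-fold higher 2 of 26 (19.3%). The 3 probe sets above 0 belonged to TAP2 and TAPBP. Probe sets that measure one gene scattered around each other by 0.36 on the log2 scale (the SD per probe set, from 5818 genes with a pair above the floor in both arrays). This SD covers probe noise and isoforms but no variation between cultures or labelling reactions.

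**Figure D1:**
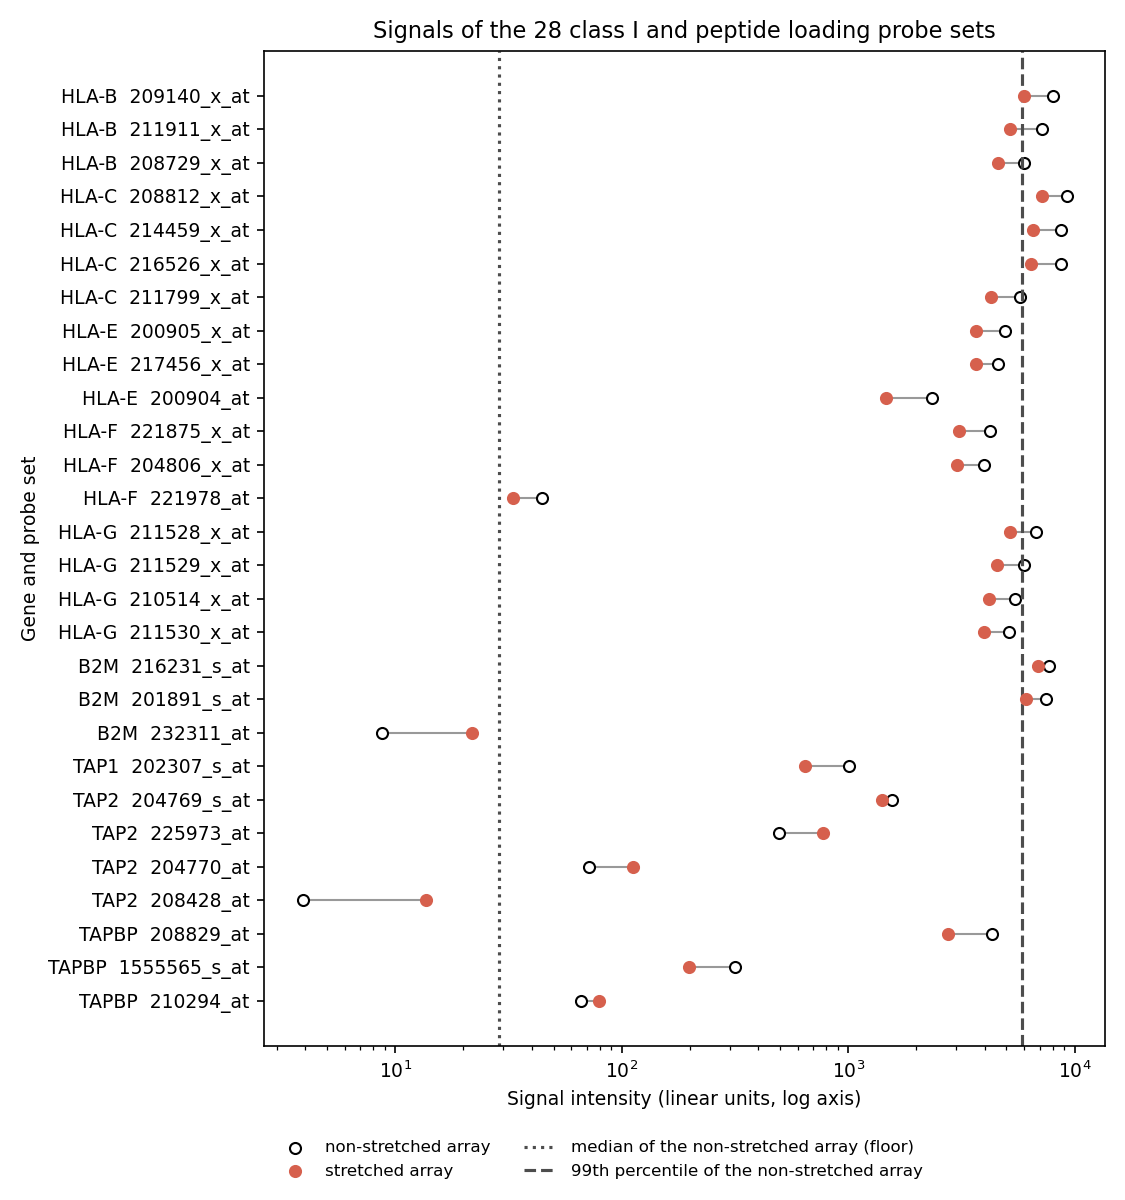
Signal intensity (linear units, log axis) of each of the 28 probe sets in the non-stretched array (open circles) and the stretched array (filled circles), with the floor and the 99th percentile of the non-stretched array as vertical lines. In the class I heavy chain genes every filled circle lies to the left of its open circle. TAP2, TAPBP and B2M have probe sets on both sides, the B2M one to the right being below the floor in both arrays.

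The classical heavy chains were among the brightest signals of the array. HLA-B was measured by 3 probe sets, which went from 7986 to 5981 (209140_x_at), from 7165 to 5164 (211911_x_at) and from 5985 to 4572 (208729_x_at). Their log2 differences were -0.42, -0.47 and -0.39, so the stretched array held between 72.1% and 76.4% of the non-stretched signal. The 4 HLA-C probe sets went from 9208 to 7176 (208812_x_at), from 8734 to 6574 (214459_x_at), from 8726 to 6447 (216526_x_at) and from 5761 to 4253 (211799_x_at), with log2 differences between -0.44 and -0.36. In both genes every probe set was lower in the stretched array, and the probe sets of one gene spread over no more than 0.084 on the log2 scale.

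HLA-G, which is known mainly from the placenta and binds inhibitory receptors on natural killer and myeloid cells, was listed with 4 probe sets. They went from 6764 to 5196 (211528_x_at), from 5995 to 4545 (211529_x_at), from 5453 to 4179 (210514_x_at) and from 5115 to 3993 (211530_x_at). Their log2 differences lay between -0.40 and -0.36, against -0.47 to -0.36 in HLA-B and HLA-C. All 11 probe sets of HLA-B, HLA-C and HLA-G carry the ending _x_at, which marks probes that can bind transcripts of related genes. A probe set of HLA-J, a class I pseudogene that is no member, with the same ending, went from 4375 to 3365, a log2 difference of -0.38. The signals labelled HLA-B, HLA-C and HLA-G therefore cannot be told apart here, and the values listed for HLA-G were not shown to come from an HLA-G transcript.

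HLA-E, the ligand of the natural killer receptor pair CD94 and NKG2A, had a probe set without that ending. It went from 2352 to 1471 (200904_at), a log2 difference of -0.68 or 1.60-fold lower, which was the lowest value among the 17 measured class I probe sets. The 2 HLA-E probe sets ending in _x_at went from 4911 to 3684 and from 4573 to 3674, with log2 differences of -0.41 and -0.32. HLA-F, a non-classical chain that can reach the surface without peptide, went from 4209 to 3084 (221875_x_at) and from 3970 to 3030 (204806_x_at), differences of -0.45 and -0.39. Its probe set without the ending was dim, at 44.6 and 33.3 (221978_at), with a difference of -0.42. Among the 15 class I probe sets ending in _x_at the log2 differences spanned 0.16 in all, from -0.47 to -0.32. Both class I probe sets without that ending were lower as well.

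The brightest probe sets of the array, whatever their gene, spread over a narrow range of differences. In at least 1 array, 10 of the 28 probe sets exceeded the 99th percentile of the array (5845 without stretch and 5896 with it): all 10 did so without stretch and 6 of them also with it. They were 3 of HLA-B, 3 of HLA-C, 2 of HLA-G and 2 of B2M. Over the 547 probe sets of the whole array whose mean log2 signal lay above its 99th percentile, the differences ran from -0.85 to 0.67, and the central 90% lay between -0.34 and 0.35. None of these 547 (0%) was at least 2-fold lower and 1.1% were at least 1.5-fold lower. At that mean brightness were 8 member probe sets, of which none was at least 1.5-fold lower and 8 lay below 0, against 42% of the 547 as deposited, 71.7% after centring on the 75th percentile and 17.0% with the spike-ins. The 6 of HLA-B, HLA-C and HLA-G among them ranged from -0.47 to -0.36, and 25 of the 547 lay at or below -0.36, these 6 included. All 6 end in _x_at and cannot be told apart by gene, so the 8 are not 8 separate readings. Probe sets of one gene at this brightness scattered by 0.068 (the same SD, from 74 genes). The deposited table holds no saturation flags, and whether signals this bright still follow the amount of RNA was not tested.

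**Figure D2:**
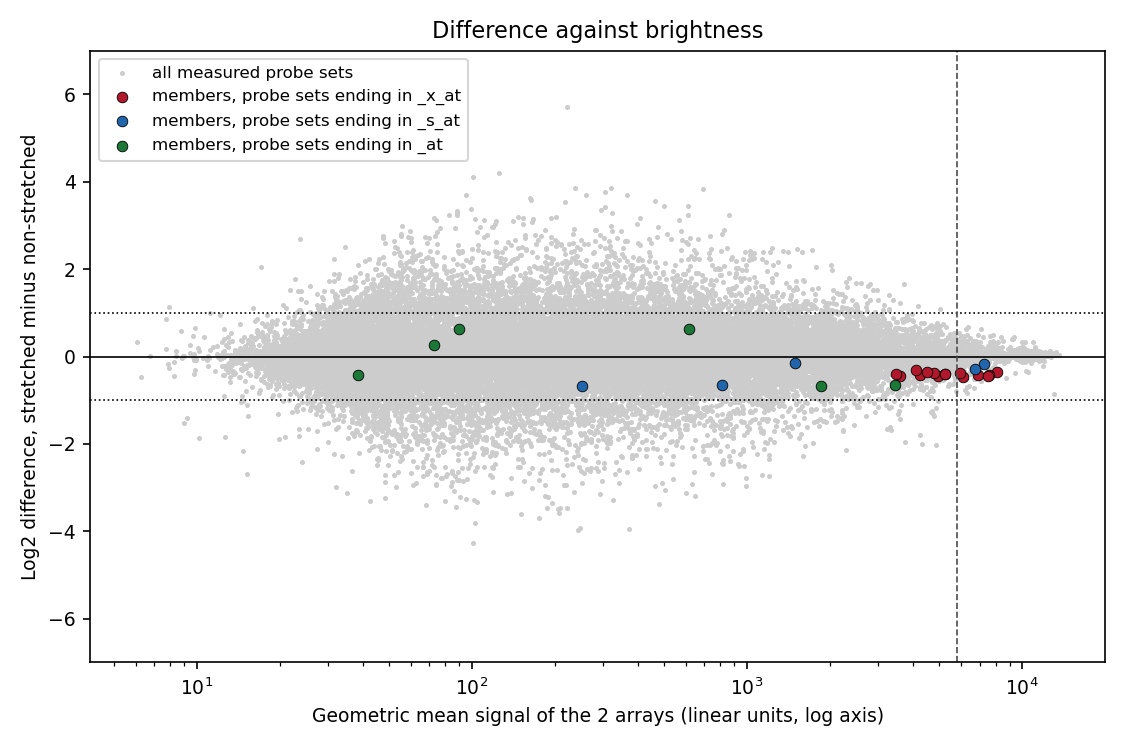
Log2 difference (stretched minus non-stretched) against the geometric mean signal of the 2 arrays (linear units, log axis) for all measured probe sets (grey) and the 26 measured member probe sets, coloured by the ending of their name; dotted lines mark 2-fold and the dashed line the 99th percentile of mean signal. The spread narrows to the right, and the _x_at members form a tight group between -0.47 and -0.32.

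B2M, the light chain that every class I heavy chain needs to reach the surface, differed less. Its bright probe sets went from 7675 to 6868 (216231_s_at) and from 7445 to 6099 (201891_s_at), log2 differences of -0.16 and -0.29. Both stayed above the 99th percentile in both arrays. The third, 232311_at, was below the floor in both arrays, at 8.77 and 21.9, and gives no difference.

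Among the loading genes, TAP1 and tapasin had the lowest values. TAP1 was measured by 1 probe set, which went from 1013 to 644 (202307_s_at), a log2 difference of -0.65 or 1.57-fold lower. TAPBP, which bridges the transporter and the empty heavy chain, went from 4322 to 2768 (208829_at) and from 317.8 to 198.4 (1555565_s_at), differences of -0.64 and -0.68. Its dimmest probe set went the other way, from 66.4 to 79.8 (210294_at, 0.26). The brighter pair of TAPBP probe sets differed from each other by far less than the SD of a probe set. The third was above the floor in both arrays, and with its probe sets averaged TAPBP was at -0.35.

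TAP2, the partner of TAP1 in the transporter, had probe sets in both directions. Its brightest probe set went from 1568 to 1411 (204769_s_at, -0.15), whereas 225973_at went from 493.9 to 770.9 (0.64) and 204770_at from 71.9 to 112.0 (0.64). The fourth, 208428_at, was below the floor in both arrays. The value for TAP2 thus depends on which probe set stands for the gene, and the array table does not say which transcripts each one binds.

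The reference promoters of these genes are shown because interferon-responsive transcription is what these genes are known for. RefSeq's promoter table (GRCh38.p14) held windows for 8 of the 9 genes, HLA-E being the one without an entry. The interferon-stimulated response element (ISRE) was searched on both strands as GAAA, a pair of any bases and GAAA again, from 250 bases before to 50 after each annotated start site. It was present for 5 of the 8 genes (HLA-F, B2M, TAP1, TAP2 and TAPBP) and in 3.57% of all 35116 windows of that length; counted by gene, as the members are, 4.38% of 27305 genes had it in a window. A shorter form added after that search, GAA, a pair of any bases and GAAA, was found for HLA-B, HLA-C and TAP2 and in 7.66% of windows (9.31% of genes); the 2 forms overlap in TAP2. NF-kB was searched as GGGA, a pair of any bases and TTCC, found for B2M and TAP1 (1.61% of windows, 1.97% of genes), and as the 10-letter NF-kB consensus of the class I enhancer A, found for HLA-B only (0.077% of windows, 0.095% of genes). The cAMP response element TGACGTCA was in none of the 8 (1.85% of windows, 2.25% of genes) and its core TGACG was in 4, HLA-B, HLA-C, B2M and TAP2 (24.6% of windows, 28.4% of genes). The Y box core ATTGG was in 6, all but TAP2 and TAPBP (34.6% of windows, 39.7% of genes). Below are the 200 bases before the annotated start site of the 3 heavy chain genes with an ISRE, shorter form or NF-kB match, read in the direction of the gene. Capitals mark matches to the ISRE, its shorter form and both NF-kB patterns.
HLA-B, chr6:31357180-31357379, minus strand: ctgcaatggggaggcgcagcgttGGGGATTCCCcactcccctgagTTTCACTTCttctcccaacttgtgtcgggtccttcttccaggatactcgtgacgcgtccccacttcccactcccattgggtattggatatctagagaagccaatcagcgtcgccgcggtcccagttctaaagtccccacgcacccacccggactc
HLA-C, chr6:31272093-31272292, minus strand: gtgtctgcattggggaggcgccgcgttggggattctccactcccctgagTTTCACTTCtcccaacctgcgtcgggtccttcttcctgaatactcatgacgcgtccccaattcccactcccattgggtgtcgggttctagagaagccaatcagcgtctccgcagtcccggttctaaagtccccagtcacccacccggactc
HLA-F, chr6:29723234-29723433, plus strand: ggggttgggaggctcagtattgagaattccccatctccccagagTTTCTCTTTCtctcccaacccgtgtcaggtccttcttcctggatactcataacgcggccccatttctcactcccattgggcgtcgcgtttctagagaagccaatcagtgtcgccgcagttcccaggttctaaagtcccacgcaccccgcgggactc

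The same 200 bases are given for the light chain and the loading genes, with the same kinds of match in capitals, to show the ISRE matches that overlap in tandem in B2M, TAP1 and TAPBP.
B2M, chr15:44711317-44711516, plus strand: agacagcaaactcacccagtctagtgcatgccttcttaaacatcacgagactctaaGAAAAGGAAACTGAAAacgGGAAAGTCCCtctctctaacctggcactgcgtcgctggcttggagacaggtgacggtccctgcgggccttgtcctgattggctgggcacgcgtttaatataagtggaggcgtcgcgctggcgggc
TAP1, chr6:32853705-32853904, minus strand: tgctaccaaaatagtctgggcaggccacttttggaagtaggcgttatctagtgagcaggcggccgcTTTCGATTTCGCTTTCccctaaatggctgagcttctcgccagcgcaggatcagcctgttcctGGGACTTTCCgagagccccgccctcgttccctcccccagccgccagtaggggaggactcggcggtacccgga
TAP2, chr6:32838740-32838939, minus strand: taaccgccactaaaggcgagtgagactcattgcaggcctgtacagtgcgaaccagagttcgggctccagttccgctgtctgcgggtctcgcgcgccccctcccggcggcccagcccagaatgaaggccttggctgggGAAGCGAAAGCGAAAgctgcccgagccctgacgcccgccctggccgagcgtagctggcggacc
TAPBP, chr6:33314079-33314278, minus strand: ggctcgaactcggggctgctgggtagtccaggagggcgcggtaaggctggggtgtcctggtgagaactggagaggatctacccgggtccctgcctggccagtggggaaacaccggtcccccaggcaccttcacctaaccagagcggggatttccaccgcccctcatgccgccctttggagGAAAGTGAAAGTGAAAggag

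The HLA-B and HLA-C windows have a similar layout, with a class I form match starting at -155 and -151 (bases from the start site) and a TGACG match starting at -106 and -105. In TAPBP the ISRE matches start at -20 and -14, in TAP1 at -134 and -128, and in B2M at -144 and -138. Class I promoters differ between alleles, and these letters are those of the reference and not of Calu-3. A match is a run of letters and shows no binding. Over all measured genes of the promoter table, 430 had an ISRE in a window: 14.4% of them were lower by 2-fold or more, 4.65% were higher by as much, and their median log2 difference was -0.14. Of the 10486 without one, 6.98% were lower and 7.76% higher by this measure, and the median was 0.017. For the NF-kB motif the shares at least 2-fold lower were 7.11% of 239 genes with it and 7.28% of 10677 without it. The shares at least 2-fold higher were 7.53% and 7.64%, and the medians 0.039 and 0.010. Whether either motif had a part in these differences was not tested. The 5 members with the ISRE were at -0.45 (HLA-F), -0.16 (B2M), -0.65 (TAP1), -0.15 (TAP2) and -0.64 (TAPBP) in their brightest probe sets. Other probe sets of TAP2 (0.64 and 0.64) and TAPBP (0.26) lay above 0. HLA-B, HLA-C and HLA-G, without that motif in their windows, were at -0.42, -0.36 and -0.38.

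**Figure D3:**
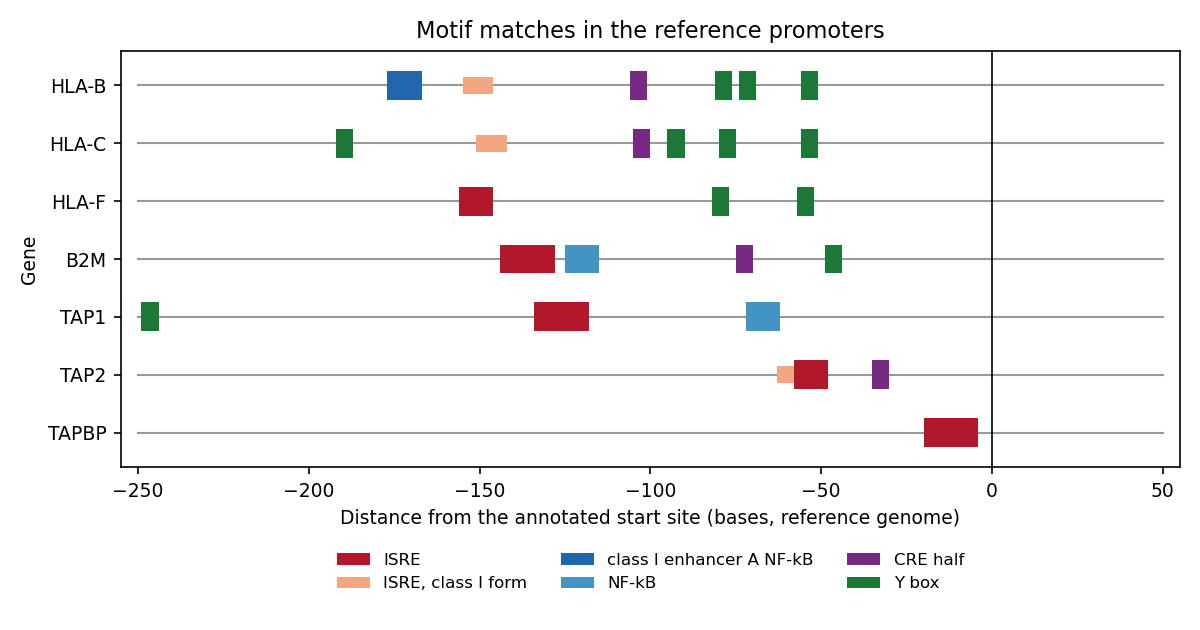
Positions of motif matches (boxes, in bases from the annotated start site, 0 on the axis) in the reference promoter windows of 7 genes, coloured by motif. ISRE matches start at -20 and -14 in TAPBP and at -128 or farther upstream in HLA-F, B2M and TAP1.

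Other genes of the pathway were given by fixed lists, each gene by its brightest probe set, and are read against all measured genes, of which 49.5% lay below 0, 7.49% by 2-fold or more, and 7.78% lay above it by as much. The 8 genes of peptide loading and trimming in the endoplasmic reticulum all lay below 0 (median -0.33; 7 of 8 with the arrays centred on the spike-ins), and none was at least 2-fold lower. The 3 brightest were the lectin chaperones CANX (8638 to 8023, -0.11) and CALR (4605 to 3858, -0.26) and the isomerase PDIA3, which is ERp57 (5202 to 4128, -0.33). Named after their values were seen, the peptide-trimming enzyme ERAP2 went from 1464 to 780.4 (-0.91) with 4 probe sets between -1.36 and -0.78, and the tapasin-related editor TAPBPL from 422.7 to 234.7 (-0.85).

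The proteasome subunits differed in direction by type, with differences of 2-fold or more only in PSMB9 and PSMB8. PSMB9 and PSMB8, catalytic subunits of the interferon-induced immunoproteasome whose genes lie beside TAP1 and TAP2, were 3.92-fold lower (1536 to 392.0, -1.97) and 2.01-fold lower (1697 to 842.6, -1.01), each in 1 probe set. The remaining such subunit, PSMB10, went from 1101 to 974.7 (-0.18), and PSME1, of the PA28 activator, from 3888 to 3340 (-0.22). PSME2, the other PA28 gene of the list, had only a probe set shared with MIR7703, which went from 2857 to 2791 (-0.03). The constitutive subunits that the immunoproteasome subunits replace were all higher, with PSMB5 at 0.49 (3084 to 4330), PSMB6 at 0.36 (2867 to 3683) and PSMB7 at 0.48 (2816 to 3917). All 6 cytosolic peptidases lay above 0 (median 0.32), but only 3 after centring on the 75th percentile. The endopeptidase THOP1, which can destroy class I peptides, went from 231.1 to 721.9 (1.64) and the aminopeptidase LAP3 from 1161 to 1745 (0.59). The other bright peptidases, NPEPPS and NRDC, were at 0.04 and 0.06.

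Among 12 regulators of class I transcription 3 differed by 2-fold or more downwards and 1 upwards (median -0.10), and 8 lay below 0, or 9 and 5 after centring on the 75th percentile and the spike-ins. Of all measured genes 7.49% were that much lower and 7.78% higher, and below 0 lay 49.5%, or 57.2% and 40.8% after these centrings. The median of the 12 was 0.01 with the spike-ins. IRF1, an activator of class I and TAP1 transcription, went from 941.0 to 430.1 (-1.13, and -0.65 in its other probe set), and its relative IRF2 from 376.8 to 164.2 (-1.20). NFYA, which binds the Y box, went from 610.8 to 295.9 (-1.05), with its 5 probe sets between -1.05 and -0.28. RFXAP, of the complex that binds the X box, went from 107.3 to 235.7 (1.14). Its other measured probe set went from 20.7, below the floor, to 28.8, so its difference of 0.01 is only a lower bound. NLRC5, the class I transactivator, was named outside the rule and was near the floor, at 29.4 without stretch and 12.7, below the floor, with it.

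Of 7 measured genes of interferon signalling 6 lay below 0 (median -0.78), and 7 or 5 after centring on the 75th percentile or the spike-ins (of all measured genes 49.5%, 57.2% and 40.8%). IRF9, the DNA-binding part of the factor that recognises the ISRE, was at -2.09 and was the only one at least 2-fold lower in its brightest probe set (7.49% of all measured genes). A probe set shared between IRF9 and RNF31 went from 148.2 to 110.8 (-0.42). IFNGR1, the ligand-binding chain of the interferon gamma receptor, went from 1368 to 685.9 (1.99-fold lower, and -1.04 by the dimmer probe set), and the kinase JAK1 from 3733 to 2170 (-0.78). IFNGR2 was at -0.08, which turns above 0 with the arrays centred on the spike-ins.

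MHC class II genes, which present peptides from outside the cell and gave signals above the floor in this line, had a lower median than class I in these 2 arrays. Of 11 genes on the class II list, 4 were lower by 2-fold or more and none was higher by as much (median -0.91), against 7.49% and 7.78% of all measured genes. HLA-DPA1 went from 1484 to 505.6 (-1.55, with 3 probe sets from -1.55 to -1.02), HLA-DPB1 from 263.7 to 68.1 (-1.95), HLA-DQA1 from 156.8 to 35.6 (-2.14) and the peptide exchange factor HLA-DMB from 889 to 405.0 (-1.13). Named after their values were seen, CD74 went from 4690 to 3473 (-0.43) and HLA-DRA from 1764 to 1172 (-0.59). HLA-DQB1 went from 2559 to 2009 (-0.35), with 6 probe sets from -1.10 to -0.28. Above 0 lay the dim CIITA (49.1 to 55.8, 0.18) and HLA-DOA (44.8 to 55.25, 0.30, with another probe set at -0.21). By probe set, with dim signals raised to the floor, 27 of 28 measured class II probe sets lay below 0 (26 after centring on the spike-ins). At least 2-fold lower were 8 of the 28, and their median was -0.81. Of all measured probe sets 46.5% lay below 0 and 6.25% were at least 2-fold lower. The measured HLA-DOB probe set is counted among the 27 only because of the floor. Its deposited signal was higher with stretch, going from 21.08, below the floor, to 28.66. The 17 measured class I probe sets had a median of -0.41 and none at least 2-fold lower. With 1 array per condition the gap between the classes has no test, and 6 of the 17 class I probe sets were among the 547 brightest, of which none reached 2-fold.

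**Figure D4:**
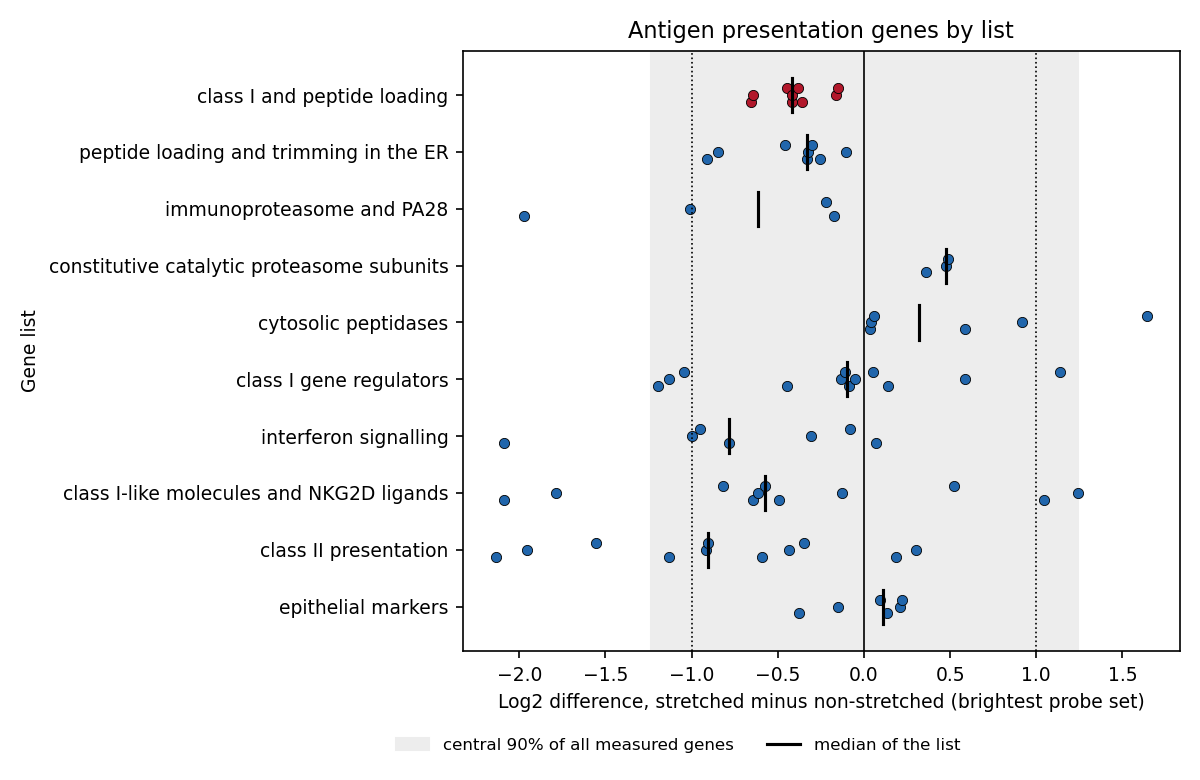
Log2 difference (stretched minus non-stretched) of each measured gene by its brightest probe set, by gene list, with the list median as a bar and the central 90% of all measured genes, from -1.23 to 1.24, in grey. The 9 class I and loading genes lie between -0.65 and -0.15, while constitutive proteasome subunits lie above 0 and class II genes reach -2.14.

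As for the arrays, the medians of the non-control probe sets differed by -0.017 on the log2 scale, the 75th percentiles by 0.11 and the 18 hybridisation spike-ins by a median of -0.11, so an uncertainty of this size lies on every difference. The ratio of 3' to 5' signal, a sign of RNA quality, was 0.88 without and 0.86 with stretch for GAPDH, and 1.04 and 1.01 for ACTB. The line's epithelial markers were bright: EPCAM was at 5482 and 4933 and KRT8 at 9458 and 10913, and the 6 markers ranged from -0.38 to 0.22. Leukocyte markers, which would mark other class I-rich and class II-rich cells, were at or near the floor: the 10 on the array summed to 279.4 and 260.5, with PTPRC (CD45) below the floor in both arrays and the highest, CD14, at 78.6 and 55.1. Of 5 fibroblast markers 2 and of 4 endothelial markers 1 exceeded the floor, none with a 2-fold difference in its brightest probe set, and their sums over brightest probe sets were 214.5 and 184.5, and 91.0 and 88.4. Other probe sets of the fibroblast collagen gene COL1A1 did differ: 1 went from 174.3 to 30.4 (-2.52) and 1 from 149.2 to below the floor (at least 5.26-fold lower), whereas its brightest by mean signal went from 126.0 to 105.5 (-0.26). The part of these markers in the class I differences was not tested. Fewer expressing cells and less RNA per cell cannot be told apart in such samples.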

How the data were processed

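In the deposited table each array has a linear intensity for every probe set. Per the labels' protocols, total RNA was purified on spin columns and 6 µg was turned into biotin-labelled cRNA for Affymetrix arrays; the sources used here do not give summarisation, scaling, software or detection calls. Of 54675 probe sets 62 were controls. Symbols came from the platform annotation, updated through gene IDs to RefSeq; 41091 probe sets named 1 gene, 1801 several and 11721 none, and the last 2 classes entered no gene count. Intensities below an array's 50th percentile were set to it before log2, and no further scaling was done. The brightest probe set by mean log2 signal stood for a gene. Named genes were all members, and of each pathway list those at least 2-fold different and, with fewer than 3 such genes, the 3 brightest; cell type markers were named outside this rule. Members and lists were chosen with earlier results of these data known. With 1 array per group there was no test. Scripts (Python 3.11.15, pandas 2.3.3, numpy 2.4.6) were tested on simulated data. Alternatives changed the floor, scaling, choice of probe sets and threshold. Some listed genes have no probe set of their own and entered no gene count.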

Additional observations from a re-analysis of the deposited data

How the results depend on the processing

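With 1 array per group no replicate could be left out, and no paired analysis was possible because the labels give no replicate numbers. A value was taken as moved when it shifted by more than the SD of a probe set, 0.36, and a count when it changed by over 1.5 times; 247 of 271 recomputed values did neither and no value of at least 2-fold turned its sign. Of smaller ones TAP2 did, and the regulators' median went from -0.10 to 0.01 with the spike-ins. The members' median stayed between -0.53 and -0.30. TAP2 went to 0.38 with probe sets averaged and to 0.64 when _x_at and _s_at probe sets were left out, which leaves 4 of the 9 genes measured. At a 1.5-fold threshold, 2 members and 4 member probe sets were lower. Centring on the 75th percentile put the median of all genes at -0.10 and centring on the spike-ins at 0.12; under both, all 9 members stayed below 0, the nearest being TAP2 at -0.04 and B2M at -0.05 with the spike-ins. For the lists, counts at least 2-fold lower became, with the floor at the 75th percentile, 1 for class I-like molecules and 2 for class II, and those higher 0 for class I regulators and 1 for class I-like molecules. Centring on the 75th percentile gave 1 lower for loading and trimming, 3 for interferon signalling and 1 higher for class I-like molecules. Centring on the spike-ins gave 1 lower for the immunoproteasome and 2 higher for peptidases. Averaging probe sets gave 1 lower and 0 higher for regulators and 2 lower for interferon signalling. Without _x_at and _s_at, the immunoproteasome had 1 lower and a median of -0.22. The 1.5-fold threshold gave 2 lower for loading and trimming, 4 for interferon signalling, 5 for class I-like and 7 for class II, and 3 higher for peptidases and 2 for regulators.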

Other observations

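Class I-like molecules, which share the class I fold or serve as stress ligands of the natural killer receptor NKG2D, did not move one way. Of 11 measured, 2 differed by 2-fold or more downwards and 2 upwards, against 7.49% and 7.78% of all measured genes, and the median was -0.57 on the log2 scale. PROCR, the endothelial protein C receptor, went from 636.5 to 149.6 (-2.09, 1 probe set), and MR1, which presents vitamin B metabolites to mucosal-associated T cells, from 228.3 to 66.1 (-1.79), with its 4 probe sets between -2.04 and -1.08. The NKG2D ligands ULBP2 and MICB were higher, from 174.1 to 411.1 (1.24, and 1.53 in its other probe set) and from 1470 to 3035 (1.05). MICA, also an NKG2D ligand and named after its value was seen, went from 1699 to 2437 (0.52). The other measured NKG2D ligands were dim: ULBP1 went from 41.95 to 38.4 (-0.13), and RAET1E from 39.95 to 20.1, below the floor, at least 1.41-fold lower.

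FCGRT, the neonatal Fc receptor, which pairs with B2M, went from 864.5 to 553.2 (-0.64), and HFE, the iron-regulating class I-like protein that also pairs with it, from 577.5 to 327.4 (-0.82), with its 14 measured probe sets between -1.44 and 0.17. Both were named after their values were seen. The antisense transcript HLA-F-AS1 went from 1064 to 821.5 (-0.37); the array's probes may not tell it from HLA-F.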
